A study of Mus musculus with 360 samples.

Results

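The hair cell ribbon synapse is described here through 6 genes, Otof, Slc17a8, Cabp2, Cacna1d, Bsn and Ctbp2, which were chosen by name out of the 48440 genes of an exon UMI matrix of single mouse cochlear cells. A UMI, or unique molecular identifier, marks reads that come from 1 captured RNA molecule. The tested animals, called GAP, carried Fbxo2CreERT2, Rosa26-tdTomato and Rosa26-GAP, an allele from which Cre activates Gfi1, Atoh1 and Pou4f3. Control animals carried Fbxo2CreERT2 and Rosa26-tdTomato alone. Fbxo2CreERT2 is a tamoxifen-dependent Cre under the Fbxo2 locus, which is active in non-sensory cells of the cochlea among others. Both genotypes received tamoxifen at 3 weeks of age, and cochlear cells were freed with papain at 5 weeks and sorted singly into 96-well plates by tdTomato and EpCAM fluorescence. The 180 GAP cells and the 180 control cells are not tied to named animals, so each genotype is 1 sample, no test of a difference is possible and no p-value is given.

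A hair cell releases glutamate onto the auditory nerve from ribbons, electron-dense bodies that hold synaptic vesicles next to calcium channels. Sound bends the hair bundle, the cell depolarises, L-type calcium channels open and vesicles fuse at a rate graded with the receptor potential. Otof encodes otoferlin, the calcium sensor without which inner hair cells release almost no transmitter. Slc17a8 encodes VGLUT3, the transporter that loads their vesicles with glutamate. Cacna1d encodes the pore of the calcium channel, and Cabp2 encodes a calcium-binding protein that limits the inactivation of that channel. Bsn encodes Bassoon, which anchors the ribbon to the membrane, and Ctbp2 encodes both a widely expressed transcriptional corepressor and, from another start, RIBEYE, the main protein of the ribbon itself.

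The genes lie on 6 chromosomes of the mouse genome (GENCODE release M21 on GRCm38). Otof (ENSMUSG00000062372.13) spans chr5:30367062-30461932, Slc17a8 spans chr10:89574020-89621253, Cacna1d spans chr14:30039939-30491455, Bsn spans chr9:108096022-108190384 and Ctbp2 spans chr7:132987563-133124354, all on the minus strand. Cabp2 is the short one, on the plus strand at chr19:4081578-4087340. Promoter sequences of RefSeq (GRCm38.p6) cover 9 start sites of 5 of the genes. They are shown because the factors of the GAP allele bind short motifs, and because Slc17a8 and Cabp2 were almost absent from control cells while Cacna1d was not. The 250 bases before each start were searched on both strands for the E-box hexamers CAGATG and CAGCTG, which factors of the Atoh1 class bind, for the GFI1-type letters AAATCAC and for the POU4-type letters ATNATTNAT. Of the 9 windows, 3 hold an E-box, and they follow 5′ to 3′ with the E-box in capitals (CATCTG is CAGATG read on the other strand).
Cabp2, chr19:4082238-4082487, plus strand: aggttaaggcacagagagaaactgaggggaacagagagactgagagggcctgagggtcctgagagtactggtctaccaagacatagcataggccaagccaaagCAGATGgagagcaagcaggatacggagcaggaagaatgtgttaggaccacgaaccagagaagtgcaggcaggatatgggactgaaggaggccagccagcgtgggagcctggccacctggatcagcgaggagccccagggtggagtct
Slc17a8, chr10:89599816-89600065, minus strand: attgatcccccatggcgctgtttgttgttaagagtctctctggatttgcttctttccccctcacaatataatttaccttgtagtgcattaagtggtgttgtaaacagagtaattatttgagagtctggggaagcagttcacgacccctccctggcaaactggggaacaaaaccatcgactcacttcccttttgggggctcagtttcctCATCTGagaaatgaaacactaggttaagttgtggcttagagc
Cacna1d, chr14:30353487-30353736, minus strand: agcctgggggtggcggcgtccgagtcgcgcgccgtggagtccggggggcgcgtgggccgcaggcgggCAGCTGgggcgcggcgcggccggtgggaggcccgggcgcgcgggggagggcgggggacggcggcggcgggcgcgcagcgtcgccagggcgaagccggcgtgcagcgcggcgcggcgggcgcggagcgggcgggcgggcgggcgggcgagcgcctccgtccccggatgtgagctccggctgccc
All 3 windows precede starts inside the gene's annotated span, and the Slc17a8 E-box is the closest of the 3, 37 to 42 bases before its start. Among all 32851 windows of this length 25.5% hold one of the 2 hexamers, so E-boxes are frequent letters. A POU4-type match occurred in 1 window of Cacna1d and in 1 of Ctbp2, against 3.42% of all windows, and AAATCAC in 0 of the 9, against 2.75% of all. These are matches of letters and not measured binding.

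The GAP cells held 5366362 UMIs in all, with a median of 28963 per cell, and the control cells 4001274, with a median of 21280. The authors' deposited annotation places 341 of the 360 cells in 9 clusters, whose names are spelled here as in the file. Reprogrammed Hair Cells (51 cells), Reprogammed Sup Cells 1 (54 cells) and Reprogrammed Supp Cells 2 (20 cells) hold GAP cells only, and the WT clusters hold mainly control cells. The name Reprogrammed Hair Cells was checked against 13 hair cell genes (Myo7a, Myo6, Ptprq and others). All 13 were present in that cluster, at a summed level of 4297 CPM (the UMIs of a gene over all UMIs of the set, as counts per 1e6), and 7 were present in control cells, at 291 CPM. Every one of these 13 genes had UMIs in Reprogammed Sup Cells 1 too, at 2839 CPM. Calb2 was the lowest of them in the hair cell cluster, at 2.77 CPM. A list of 11 supporting cell genes summed to 12659 CPM in that cluster and 11700 CPM in control cells, and 10 of the 11 had UMIs in the cluster. S100a1 alone made up 7793 and 4945 CPM of these sums. Lgr5 stood at 776 CPM in the cluster and 257 CPM in control cells, and Fgfr3 was also higher in the cluster. Sox10 was lower there, at 679 and 1439 CPM, as were Otoa, at 69.2 and 762.5 CPM, and Slc1a3, at 24.9 and 279 CPM. Gjb2, Epyc and Cdkn1b were lower in the cluster too. Sox2 had 0 UMIs in the cluster but only 7 in all control cells, 1.75 CPM, so no loss is read from it. The clusters were drawn by the authors from the same cells, so levels by cluster are descriptions.

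Otof, Slc17a8 and Cabp2 were close to absent from control cells and present in GAP cells, Cacna1d was present in both genotypes at similar levels, Bsn was sparse and Ctbp2 was not measurable. Of the 6 genes, 4 reached 10 CPM in a genotype. Otof, Slc17a8 and Cabp2 exceeded control by 2-fold or more once 1 CPM was added to both levels, that is 3 of 4, against 13% of the 10152 genes at 10 CPM or more. None of the 4 was 2-fold lower, against 6.61% of all. All 3 were under 10 CPM in control cells and entered only through their level in GAP cells, so nothing is read from this count. In Reprogrammed Hair Cells against all control cells the same 3 genes were at least 2-fold higher, against 16.5% of 10295 genes, and 0 were lower, against 12.2%. All intervals below are exact 95% intervals for counting error alone and do not cover variation between animals. Beside a value of 0 stands the limit that 3 counts of the total would set, and a fold against 0 UMIs with the level in GAP cells as measured and 3 UMIs in its place.

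**Figure D1:**
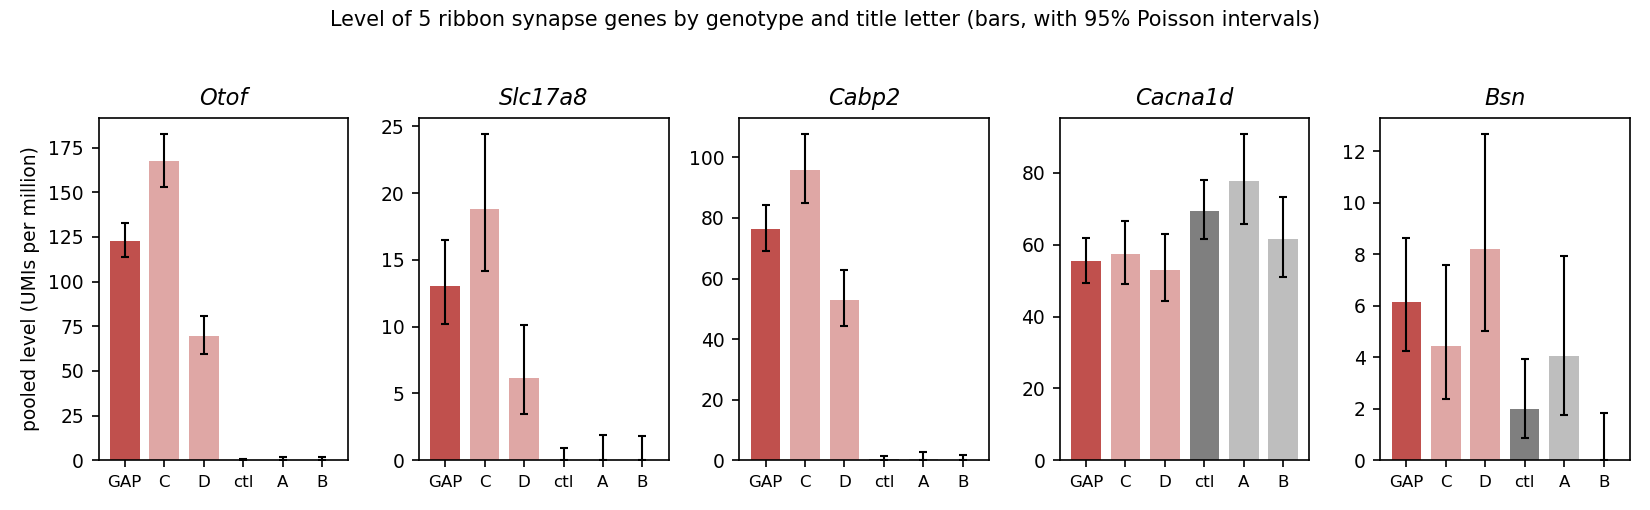
Pooled level (y axis, CPM, starting at 0) of 5 ribbon synapse genes in GAP cells and in their title letters C and D, then in control cells (ctl) and their letters A and B, with exact 95% Poisson intervals. Otof, Slc17a8 and Cabp2 stand near 0 in both control letters and are higher in letter C than in D, while Cacna1d lies between 52.95 and 77.6 CPM in all 4 letters.

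Otof, the calcium sensor of release, had the most UMIs of the 6 genes. It had 659 UMIs in GAP cells, a pooled level of 122.8 CPM (113.6 to 132.5), and 0 UMIs in control cells, so the level was at least 163.8-fold higher in GAP cells when the control is set to a floor of 3 UMIs over the genotype. The exact interval of that ratio starts at 132.8. Single GAP cells ranged from 0 to 2956 CPM with a median of 0, and 70 of 180 had a UMI. With every cell thinned to 8000 UMIs, 22.8% of GAP cells (16.9 to 29.6) had an Otof UMI, and 0 of the control cells kept at that depth did, which allows a share of up to 1.69% (3 cells). Reprogrammed Hair Cells stood at 266 CPM (240 to 294, 384 UMIs in 22 of 51 cells), Reprogammed Sup Cells 1 at 86.8 CPM (73.6 to 101.6, in 24 of 54 cells) and Reprogrammed Supp Cells 2 at 26.3 CPM (12.04 to 49.97, 9 UMIs). The hair cell cluster was thus 3.06-fold higher than Reprogammed Sup Cells 1 by pooled level (2.53 to 3.72). The size of that difference depended on the title letter, with 4.85-fold in letter C (3.84 to 6.17) and 1.64-fold in letter D (1.17 to 2.32), and without its 5 highest cells the hair cell cluster stood at 100.6 CPM. At equal depth a nearly equal share of cells in these 2 clusters had a UMI, 29.4% (17.5 to 43.8) and 27.8% (16.5 to 41.6), and over 100 thinnings the mean shares were 28.4% and 23.6%. The 2 clusters overlapped in how many cells had Otof and differed in how much the highest cells held, up to 2956 CPM in cell C83 of Reprogrammed Hair Cells and up to 826 CPM in Reprogammed Sup Cells 1. The 15 GAP cells assigned to WT clusters had 7 Otof UMIs, 20.4 CPM (8.20 to 42), in 6 cells.

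Slc17a8, the vesicular glutamate transporter, was scarcer and more restricted. It had 70 UMIs in 18 GAP cells, 13.04 CPM (10.2 to 16.5), and 0 in control cells. Against the same floor the level in GAP cells was at least 17.4-fold higher, and the exact interval of the ratio starts at 13.8. Reprogrammed Hair Cells held 43 of these UMIs in 10 cells, 29.8 CPM (21.5 to 40.1), and the 17 GAP cells without a cluster held 22 in 4 cells, 25.4 CPM (15.9 to 38.5). All other GAP cells together held 5, and Reprogammed Sup Cells 1 held 1, 0.563 CPM (0.0143 to 3.14). Set against Otof, the hair cell cluster had 11.2 Slc17a8 UMIs per 100 Otof UMIs (7.97 to 15.4) and Reprogammed Sup Cells 1 had 0.649 (0.0163 to 3.67). These intervals do not overlap, although they rest on counts in few cells of 1 sample, and cells of a cluster share the genes that placed them there. At 8000 UMIs a Slc17a8 UMI was found in 13.7% of hair cell cluster cells (5.70 to 26.3) and in 0 of 54 cells of Reprogammed Sup Cells 1, which allows up to 5.56% (3 cells).

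Cabp2, which modulates the calcium channel, had 410 UMIs in GAP cells, 76.4 CPM (69.2 to 84.2), and 1 UMI in control cells, 0.25 CPM. The ratio was 306, with an interval from 54.6 to 12104 because of that single control UMI. Reprogrammed Hair Cells reached 175.1 CPM (154.2 to 198, 253 UMIs in 28 of 51 cells) and Reprogammed Sup Cells 1 reached 30.4 CPM (22.9 to 39.7, 54 UMIs in 19 of 54 cells). At equal depth Cabp2 was seen in 43.1% of hair cell cluster cells (29.3 to 57.8). In letter C it was seen in 9 of 20 cells, as was Otof, and in letter D in 13 of 31, where Otof was seen in 6. Over Reprogammed Sup Cells 1 the cluster was 5.70-fold higher in letter C (4.0 to 8.28) and 8.17-fold higher in letter D (4.59 to 15.8). In Reprogammed Sup Cells 1 the share was 5.56% in the thinning used and 14.2% on average over 100 thinnings, which ranged from 5.56% to 22.2%. Per 100 Otof UMIs the counts of Cabp2 were 65.9 (55.99 to 77.4) in the hair cell cluster and 35.1 (25.2 to 48.1) in Reprogammed Sup Cells 1. The 15 GAP cells of the WT clusters had 7 Cabp2 UMIs in 4 cells.

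**Figure D2:**
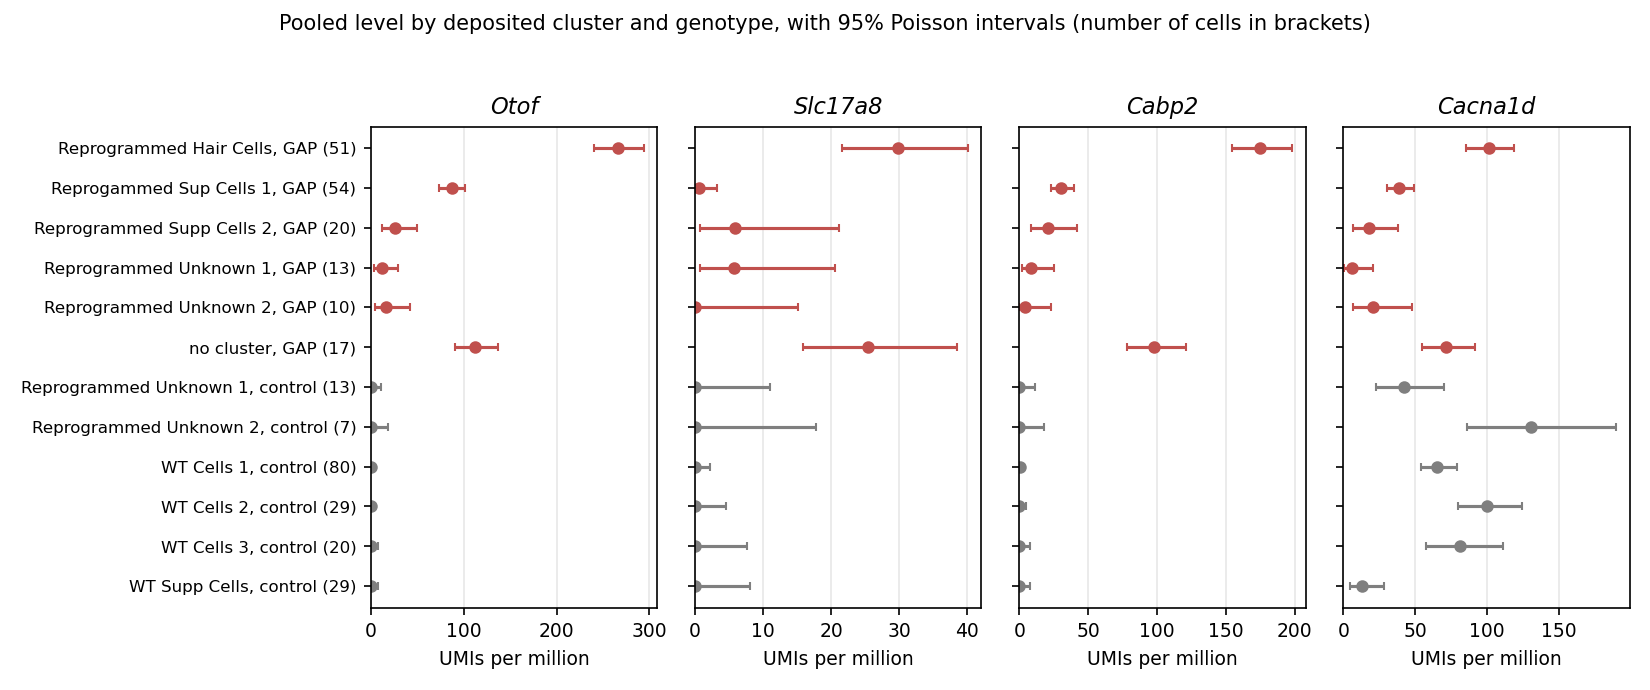
Pooled level (x axis, CPM, a separate scale per gene) in each deposited cluster and genotype, GAP sets above control sets, with exact 95% Poisson intervals and the number of cells in brackets. Otof and Cabp2 step down across the reprogrammed clusters, Slc17a8 stands apart in the hair cell cluster and in cells without a cluster, and Cacna1d is as high in several control sets as in the hair cell cluster.

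Cacna1d, the channel pore, did not follow the other genes. It had 297 UMIs in GAP cells, 55.3 CPM (49.2 to 62.01), and 278 UMIs in control cells, 69.5 CPM (61.5 to 78.1), so it was 1.26-fold lower in GAP cells (1.06 to 1.48). The mean of per-cell levels gave a ratio of 0.659, GAP over control, and without the 5 control cells with most of it the pooled ratio turned to 1.09. With the 5 highest cells of each genotype left out it was 0.837, GAP over control. By title letter the level was 57.3 and 52.95 CPM in C and D of GAP, against 77.6 and 61.5 CPM in A and B of control. Both GAP letters lay below A, with ratios of 0.739 for C (0.590 to 0.925) and 0.682 for D (0.536 to 0.868), and the intervals of their ratios to B, 0.933 (0.735 to 1.19) and 0.861 (0.668 to 1.11), included 1. Within GAP the gene was uneven. It stood at 101.1 CPM (85.3 to 118.9) in Reprogrammed Hair Cells, 38.9 CPM (30.3 to 49.2) in Reprogammed Sup Cells 1 and 17.5 CPM (6.44 to 38.2) in Reprogrammed Supp Cells 2. The hair cell cluster was 1.45-fold above all control cells (1.18 to 1.78), and 0.932-fold of them once its own 5 highest cells were left out. GAP cells outside the hair cell cluster, at 38.5 CPM, were 1.80-fold below control (1.47 to 2.21). These include the GAP cells without a cluster, at 71.6 CPM (54.9 to 91.8), and without those the level was 29.1 CPM (23.4 to 35.8). Among control sets of at least 10 cells, WT Cells 2 had 100.1 CPM (79.5 to 124.4), WT Cells 3 had 81.2 CPM (57.8 to 111.1), WT Cells 1 had 65.4 CPM (53.8 to 78.8), the control cells of Reprogrammed Unknown 1 had 41.9 CPM (22.9 to 70.3) and WT Supp Cells had 13.1 CPM (4.80 to 28.5). Neighbours in this order overlapped in their intervals. At 8000 UMIs a Cacna1d UMI was seen in 35.3% of hair cell cluster cells (22.4 to 49.9), 22.2% of GAP cells (16.4 to 29.01), 27.7% of control cells (21.2 to 34.9) and 13.8% of WT Supp Cells of control (3.89 to 31.7). Control cell B62 of WT Cells 2 had 28 UMIs, against a highest count of 24 in a GAP cell. Of the 12621 exonic bases of Cacna1d, 4.67% overlap Chdh on the other strand, and the sources used here do not state whether strand was used in counting.

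Bsn, the ribbon anchor, had 33 UMIs in 9 GAP cells, 6.15 CPM (4.23 to 8.64), and 8 UMIs in 4 control cells, 2.0 CPM (0.863 to 3.94), a ratio of 3.08 (1.39 to 7.71). That ratio rests on very few cells and was 0.580 without the 5 GAP cells with most Bsn. Cells D35 and C81, neither of which has a cluster, held 9 and 8 of the 33 UMIs. Reprogrammed Hair Cells held 14 UMIs in 5 cells, 9.69 CPM (5.30 to 16.3), and Reprogammed Sup Cells 1 held 0, which allows up to 1.69 CPM. All 8 control UMIs came from letter A, 7 of them in WT Cells 2, where the level of 8.65 CPM (3.48 to 17.8) overlapped that of the hair cell cluster. Bsn stayed under 10 CPM in both genotypes and was therefore not among the genes counted at 2-fold.

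Ctbp2 had 1 UMI in all 360 cells, in cell D54 of the hair cell cluster. The gene for a ubiquitous corepressor was thus listed at almost 0, while its paralog Ctbp1 had 659 UMIs in GAP cells, 122.8 CPM, and 401 in control cells, 100.2 CPM. In the annotation 99.3% of the Ctbp2 span lies inside the span of Fgfr2 on the same strand, although only 314 of the 6220 exonic bases are shared. Other genes in that position were also low. Of 512 protein-coding genes with at least 90% of their span inside another protein-coding gene of the same strand, 86.3% had 0 or 1 UMI, against 32.5% of 21171 other protein-coding genes. Whether the way reads were assigned to genes made the Ctbp2 count was not tested. A gene-level count would in any case add RIBEYE and the corepressor together. No statement about the ribbon protein can be made from this matrix.

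Levels of different genes were also divided by the kilobases of exon of each gene. A UMI marks 1 captured molecule, so counts need not grow with length, and the scaled order is not read as an order of molecules. In Reprogrammed Hair Cells Cabp2 stood first at 129.7 CPM per kb (114.2 to 146.7), followed by Otof at 33.6 (30.4 to 37.2), Cacna1d at 8.01 (6.76 to 9.42), Slc17a8 at 6.31 (4.56 to 8.49) and Bsn at 0.608 (0.332 to 1.02). Cacna1d and Slc17a8 did not differ beyond their intervals in this scaled order, and the other neighbours did. Without the scaling to length Otof, at 266 CPM, was above Cabp2, at 175.1 CPM, so which of them stood first depended on the scaling.

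Title letters are nested in genotype, so differences between letters and between genotypes cannot be told apart. Within GAP the letters C (92 cells) and D (88 cells) allow a look at how even the levels were. Otof was 2.41-fold higher in letter C, with 167.2 CPM, than in letter D, with 69.4 CPM (2.02 to 2.89). Slc17a8 was 3.05-fold higher in C (1.70 to 5.81) and Cabp2 1.81-fold higher (1.47 to 2.25). Cacna1d, with a ratio of 1.08 (0.856 to 1.37), and Bsn, with 0.540 (0.247 to 1.14), overlapped between the letters. Inside Reprogrammed Hair Cells, where C and D had median depths of 28205 and 28271 UMIs, the gap for Otof was wider, 501.5 CPM over 20 cells of C and 111.2 CPM over 31 cells of D (4.51-fold, 3.57 to 5.74). In that cluster Otof was seen in 14 of 20 cells of C and 8 of 31 of D, and Cacna1d in 9 of 20 and 19 of 31. The summed level of the 13 hair cell genes was 3082 CPM in C and 2606 CPM in D of all GAP cells. Other marker lists also differed between these letters, with 169.95 CPM in C and 0.41 CPM in D for 4 erythroid genes and 37.2 and 11.5 CPM for the neuron genes without Map2. Their part in the difference between letters was not tested.

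**Figure D3:**
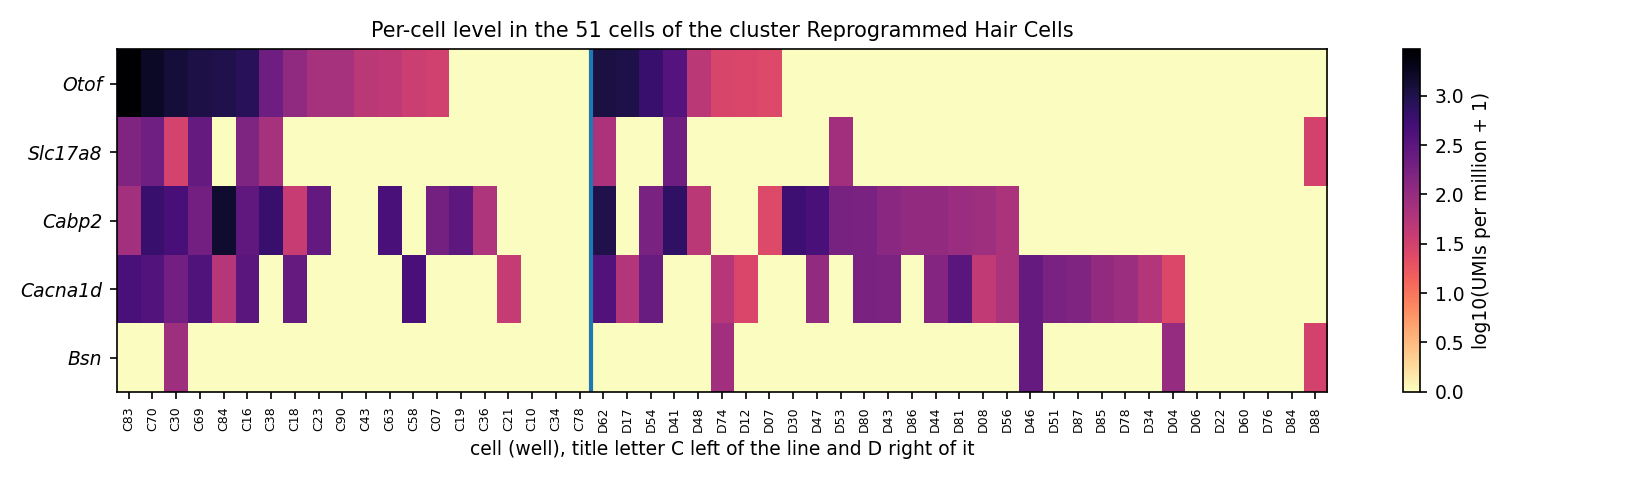
Per-cell level (colour, log10 of CPM + 1) of 5 ribbon synapse genes (rows) in the 51 cells of Reprogrammed Hair Cells (columns, named by well), letter C left of the blue line and D right of it, sorted by Otof within a letter. The cells with most Otof mostly also hold Cabp2 and Cacna1d, Slc17a8 appears in 10 cells, and Bsn is scattered over 5.

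No cell had UMIs of all 6 genes, with or without thinning. Ctbp2 was seen in only 1 GAP cell and Bsn in 9, so these counts are bounded by detection. At 8000 UMIs per cell, 8 of 51 Reprogrammed Hair Cells had UMIs of 3 or more of the 6 genes, 0 of 54 cells of Reprogammed Sup Cells 1 did, 11 of 180 GAP cells did and 0 control cells did. No control cell had more than 1 of the genes at this depth. Otof, Slc17a8, Cabp2 and Cacna1d were seen together in 4 GAP cells, all of them in the hair cell cluster. Without thinning that number was 9, of which 6 were in the hair cell cluster and 2 were cells without a cluster. The mean number of genes seen per cell at 8000 UMIs was 1.29 in the hair cell cluster, 0.537 in Reprogammed Sup Cells 1 and 0.282 in control cells.

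**Figure D4:**
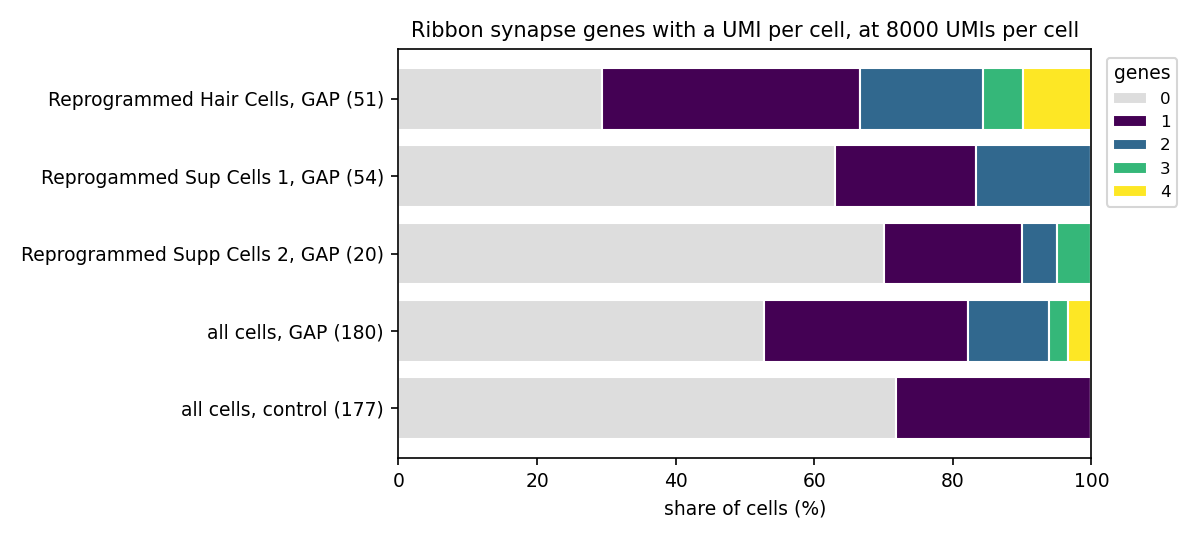
Share of cells (x axis, %) with UMIs of 0 to 4 of the 6 ribbon synapse genes after every cell was thinned to 8000 UMIs, for 3 reprogrammed clusters, all GAP cells and all control cells (number of cells in brackets). Cells with 3 or 4 genes make up 15.7% of the hair cell cluster and 6.11% of GAP cells, and no control cell has more than 1 gene.

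Cells with Slc17a8 mostly also held Otof. At equal depth, 8 of the 9 GAP cells with Slc17a8 also had Otof, and 33 of the 41 GAP cells with Otof had no Slc17a8. Of the Otof cells, 19.5% (8.82 to 34.9) had Slc17a8, against 0.719% (0.0182 to 3.94) of the others. Cabp2 was seen in 7 of the 9 Slc17a8 cells, 77.8% (39.99 to 97.2), and in 17.5% (12.2 to 24.1) of the other GAP cells. Otof and Cabp2 overlapped less tightly, with 14 cells holding both, 27 Otof alone and 23 Cabp2 alone. These shares carry no test. In all, 15 pairs of genes were counted.

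The pooled levels rested on few cells. Of the 659 Otof UMIs in GAP cells, the 5 cells with most held 41.6%, and 7 cells held at least 50%. For Slc17a8 the 5 highest cells held 64.3%, for Cabp2 33.9%, for Cacna1d 26.3% and for Bsn 81.8%. For Cacna1d in control cells the 5 highest held 29.9%. The highest Otof cell, C83, had 78 Otof UMIs, 4 of Slc17a8, 2 of Cabp2 and 12 of Cacna1d. The next, C70, had 64, 8, 23 and 14 of the same genes. Cell C81, which has no cluster, had 52 Otof, 15 Slc17a8, 6 Cabp2, 24 Cacna1d and 8 Bsn UMIs out of 53886, and held more Slc17a8 and more Cacna1d UMIs than any other GAP cell.

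**Figure D5:**
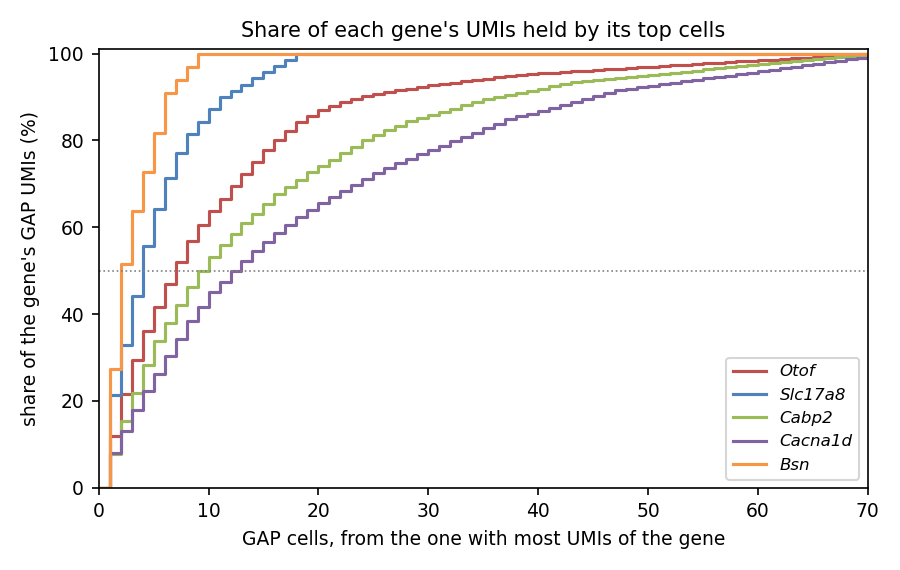
Cumulative share of a gene's UMIs in GAP cells (y axis, %) over cells ordered from the one with most UMIs of that gene (x axis), with a dotted line at 50%. The line is crossed at 2 cells for Bsn, 4 for Slc17a8, 7 for Otof, 9 for Cabp2 and 13 for Cacna1d.

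A list of 12 genes of spiral ganglion neurons, the other cells at this synapse, was read in the same cells. Map2, at 242 CPM in GAP cells and 166.7 CPM in control cells, made up most of it. The other 11 genes summed to 69.2 CPM in the hair cell cluster (100 UMIs in 10 of 51 cells), 25.5 CPM in all GAP cells and 6.50 CPM in control cells. Cell C63 held 47 of the 100 UMIs, among them 27 of Nefh and 13 of Snap25, and had 1 Otof UMI. Cell C70 held 31, among them 15 of Nefm, 10 of Snap25 and 6 of Rbfox3, beside its 64 Otof UMIs. Nefl, Tubb3 and Elavl4 had 0 UMIs in every cell. Without C63 and C70 the hair cell cluster had 230 CPM of Otof, 25.3 CPM of Slc17a8 and 158.95 CPM of Cabp2, and its Cacna1d ratio over control was 1.37. The part of neuron RNA in the remaining values was not tested.

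Further proteins of the release site were followed through a list of 34 genes. In a genotype 18 of them reached 10 CPM, and the level in GAP cells was 2-fold higher or more for 8 and 2-fold lower for 1, against 13% and 6.61% of all genes. Of the 8, 3 (Syt7, Chrna9 and Chrna10) were under 10 CPM in control cells and entered only through their level in GAP cells. In all 8 both GAP letters lay above both control letters, but the 8 were chosen by the pooled values of these same letters. The median log2 ratio of the 18 genes was 0.64, against 0.098 over all 10152 genes. Count, letters and median are therefore not read as support. In Reprogrammed Hair Cells 21 reached 10 CPM, 11 were higher and 4 were lower than in control cells, against 16.5% and 12.2% of all genes, with a median of 1.34 against 0.11. Of the 11, 7 were under 10 CPM in control cells and entered only through the hair cell cluster, so count and median are not read as support. Among scaffolds, Pclo, which encodes Piccolo, the relative of Bassoon, stood at 370 CPM in GAP cells and 97.97 CPM in control cells, 3.78-fold higher (3.39 to 4.22), and reached 669 CPM in the hair cell cluster. Erc1, of the active zone, was nearly even, with 81.8 CPM and 70.2 CPM, and Rims1 had 0 UMIs. Rims2, which tethers calcium channels, stayed under 10 CPM in both genotypes but was at 20.8 CPM in the hair cell cluster, 3.46-fold over control (1.96 to 6.19).

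Several partners of the channel pore were higher in GAP cells, where the pore itself was not. Cacnb3, a beta subunit, stood at 66.7 CPM in GAP cells and 13.7 CPM in control cells, 4.85-fold higher (3.65 to 6.57). Cacnb2, the beta subunit that hair cells are known to need, was at 11.9 and 5.50 CPM, 2.17-fold higher (1.32 to 3.70), but this came from letter C, at 19.5 CPM, since letter D, at 2.87 CPM, lay below the control level. The other beta subunits were not higher and stayed under 10 CPM. Cacnb4 had 0 UMIs in GAP cells and 11 in control cells, and Cacnb1 had a ratio of 0.727, GAP over control (0.456 to 1.16). The alpha2delta subunits Cacna2d2, at 60.4 and 19.7 CPM, and Cacna2d1, at 50.7 and 24.7 CPM, were 3.06-fold (2.38 to 3.96) and 2.05-fold (1.62 to 2.61) higher. The rise of Cacna2d1 lay mainly in letter C, at 67.6 CPM, and 1 cell held 15.4% of its GAP UMIs. Letter D stood at 30.4 CPM, against 25.2 CPM in A and 24.3 CPM in B. Chrna9 and Chrna10, subunits of the receptor by which efferent fibres inhibit hair cells, had 91 and 71 UMIs in GAP cells, against 0 in control cells. Against the floor their levels in GAP cells were at least 22.6-fold and 17.6-fold higher, and the exact intervals start at 18.02 and 13.98. Of the priming factors, Unc13a was nearly even between genotypes, with 10.2 CPM in GAP cells against 9.25 CPM, and 2.70-fold above control in the hair cell cluster (1.66 to 4.38). Unc13b was 1.27-fold lower in GAP cells (1.15 to 1.41, 141.6 CPM in GAP and 180.2 CPM in control) and Unc13c was 5.05-fold lower (3.09 to 8.60, 3.91 CPM in GAP and 19.7 CPM in control). Wrb, a receptor for tail-anchored proteins that otoferlin needs for its membrane insertion, was 2.13-fold higher (1.61 to 2.85), and its partner Caml was even at 28.7 and 27.7 CPM. Among vesicle proteins, Syt7, a calcium sensor, exceeded its control level 6.52-fold (3.14 to 15.7) in GAP cells. That control level rests on 8 UMIs in 2 cells, with 0 CPM in letter A, and 1 GAP cell held 27.1% of the GAP UMIs. The Rab3 GTPases Rab3a and Rab3d were 1.36-fold (1.13 to 1.62) and 1.97-fold (1.46 to 2.66) lower in GAP cells. In the hair cell cluster Rab3a was not lower, at 77.5 CPM and 1.23-fold of control (0.976 to 1.54). The 4 genes at least 2-fold lower in the hair cell cluster than in control cells were Unc13b, Unc13c, Rab3d and Kcnma1. For Kcnma1, with 5 UMIs and 3.46 CPM in the cluster, this came from control letter B, at 18.3 CPM, since letter A was at 3.02 CPM. Rimbp2, which links calcium channels to the active zone, had 47 UMIs in GAP cells and 0 in control cells. Cabp1, Slc17a7 and Rab3c had 0 UMIs in both genotypes.

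Likeness of pattern was measured as Pearson's r of log2(CPM + 10) over 12 sets of cluster and genotype, among 11348 genes, as a description without a test. The sets share cells' depth and the clustering. Among the genes most like Otof were Atp2b3 (r = 0.99), Ptprq, Clrn1 and Apba1. Atp2b3 encodes a calcium pump of the plasma membrane and Ptprq and Clrn1 encode hair bundle proteins. Slc17a8 was most like Chrna9 (0.99), Cdcp2, Trpm5, Reln and Scg3, and Cabp2 most like Cfap61 (0.98), Kncn, Lmod3, Gdap1 and Pgf. Cacna1d was most like Tgfb1 (0.88), Fxyd1, Kiss1r, Tsg101-ps and Pias1, and Bsn most like Shc2 (0.95), Fst, Hif3a, Dlgap1 and Trim71. Among the genes themselves, Otof and Cabp2 had r = 0.93, Slc17a8 and Cabp2 0.90 and Otof and Slc17a8 0.76, while Cacna1d had between -0.02 and 0.09 with these 3. Otof, Slc17a8 and Cabp2 were at or near 0 in the control sets and highest in the hair cell cluster, a contrast that by itself raises r. Over the 180 single GAP cells the same pairs had r of 0.42, 0.42 and 0.51.

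Over the 51 cells of the hair cell cluster, which come from 2 title letters and differ in depth, the levels of Otof and Slc17a8 had a Pearson's r of 0.65 and a Spearman's rho of 0.54. Otof and Cabp2 had 0.50 and 0.46, and Otof and Cacna1d 0.39 and 0.32. Within the letters the same r was 0.78, 0.61 and 0.71 over 20 cells of C and 0.42, 0.32 and 0.15 over 31 cells of D, in the same order. Of the factors of the GAP allele, Pou4f3 had 0.52 and 0.55 with Otof (r = 0.58 in C and 0.46 in D), Gfi1 had 0.15 and 0.11 (r = -0.18 in C and 0.32 in D), and Atoh1 had 0.01 and 0.10. Their counts were read by gene name, and RNA of the allele was not separated from RNA of the cell's own genes. Hair cell genes outside the allele were similar to Pou4f3, with 0.50 and 0.51 for Myo7a and Otof and 0.52 and 0.48 for Myo6 and Otof. Cacna1d and Atoh1 had -0.34 and -0.35 (r = -0.13 in C and -0.48 in D). The level of Otof had 0.22 and 0.23 with the log2 of a cell's total UMIs.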

How the data were processed

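The authors' deposited matrix holds whole-number exon UMI counts per gene and cell, with no normalization, for 360 cells. STAR, HTSeq and the mm10 build are named in the submitters' processing notes. No source used here gives versions, the annotation release or strand use. Of 48440 gene IDs, 48058 match GENCODE M21 without the version. Clusters are the authors' own. Each set's counts were added up and scaled by its total (CPM), with exact 95% Poisson intervals for levels, conditional-binomial intervals for ratios and Clopper-Pearson intervals for shares. For shares, 8000 UMIs were drawn from each cell; 3 control cells and 0 GAP cells were too shallow. Intervals and the floor of 3 UMIs cover counting error only. Cells were sorted singly and no doublet caller was run, so whether a well held more than 1 cell was not tested. The ratio step was tested on simulated data. TMM factors come from edgeR 4.0.16 (R 4.3.3); other steps ran in Python 3.11.15. Companion and marker genes are named where they reach 10 CPM or bear on a result; the 5 most alike genes are named per gene, with predicted genes left out and 1 gene not reported here. The genes and lists were chosen with earlier results of these data known. Title letters were used only as labels. No 2 cells had identical counts, and 0 per-sample columns were left unused. Alternatives covered scaling, filters, pseudocounts, thinning depths, each letter left out and the highest cells left out.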

Additional observations from a re-analysis of the deposited data

Results flagged for a closer look

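The authors gave no cluster to 17 GAP cells, 14 of letter C and 3 of letter D. No comparison between named clusters uses them, though the GAP cells outside the hair cell cluster include them. They held Otof, Slc17a8, Cabp2 and Bsn above the level of control cells. Otof stood at 111.98 CPM in these cells (90.8 to 136.6) and had 0 UMIs in control cells. Slc17a8 stood at 25.4 CPM (15.9 to 38.5) and had 0 UMIs in control cells. Cabp2 stood at 98.1 CPM (78.4 to 121.3), against 0.25 CPM in control cells. Bsn stood at 19.6 CPM (11.4 to 31.4), against 2.0 CPM in control cells, with all 17 UMIs in cells C81 and D35. The 17 cells held 16.1% of all GAP UMIs but 31.4% of the Slc17a8 and 51.5% of the Bsn UMIs of GAP cells. Their share was 14.7% for Otof, 20.7% for Cabp2 and 20.9% for Cacna1d. Cell C81 alone held 15 of their 22 Slc17a8 UMIs. Their median depth was 49455 UMIs (42346 to 60218), against 28085 in GAP cells with a cluster, and 15 of the 17 were deeper than the deepest of those, which had 44672. The part that depth has in these values was not tested.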

How the results depend on the processing

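Leaving out C63 and C70, leaving out the 5 highest cells of both sets, and the values within each letter, were chosen after seeing the data. Every value depends on 1 sample per genotype, counting intervals leave out variation between animals, and a gene near 10 CPM is missed in most single cells at this depth. No paired analysis was possible because replicate numbers are accession order and no test was made. Leaving out each letter moved the GAP level of Otof between 69.4 and 167.2 CPM and its fold bound between 81.2 and 223, of Slc17a8 between 6.16 and 18.8 CPM and between 8.21 and 25.03, and of Cabp2 between 52.95 and 95.9 CPM with a ratio between 51.4 and 384. In the hair cell cluster the ranges were 111.2 to 501.5 CPM and 148.3 to 669 for Otof, 16.05 to 50.7 CPM and 19.7 to 67.6 for Slc17a8, and 128.4 to 246 CPM and 117.8 to 986 for Cabp2. A bound falls when a control letter is left out because the floor of 3 UMIs is then set against fewer UMIs. The Cacna1d ratio kept its direction over the letters, between 0.713 and 0.9003 for GAP and between 1.11 and 1.99 for the hair cell cluster, and the Bsn ratio lay between 1.53 and 4.11 and between 2.40 and 6.31 over letters B, C and D. Without letter A the control has 0 Bsn UMIs and no ratio can be given.

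Without the 5 cells with most of a gene the GAP level was 74.3 CPM for Otof, 4.84 for Slc17a8 and 52.3 for Cabp2, and in the hair cell cluster 100.6, 7.06 and 100.4 CPM. The same step turned the ratios of Cacna1d (1.09 for GAP, 0.932 for the cluster) and of Bsn (0.580 for GAP, 0 for the cluster), which by construction lowers the higher side. Without the 1 highest cell the Otof level was 108.8 CPM over GAP cells and 216 CPM over the cluster. Its mean over GAP cells was 109.6 CPM, thinning gave 101.4 CPM for GAP and 225 CPM for the cluster, and leaving out C63 and C70 gave 230 CPM. The mean over cells put Cacna1d at 0.659.

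The count of genes at least 2-fold higher in GAP was 484 with a filter of 50 CPM, 2851 with none and 831 with 10 CPM added, and of genes lower 349, 1313 and 403, against 1320 and 671. For the hair cell cluster these were 629, 3561 and 1071 higher and 631, 2285 and 832 lower, against 1697 and 1252. Shares of GAP cells with a UMI at 4000 UMIs, at 15000 and without thinning were 16.1%, 30.7% and 38.9% for Otof, 13.9%, 30.7% and 38.9% for Cabp2 and 13.3%, 32.5% and 40% for Cacna1d, and 10% for Slc17a8 without thinning. For Cacna1d they were 50% and 54.9% in the hair cell cluster at 15000 UMIs and without thinning, and 18.9%, 35% and 39.4% in control cells. TMM and median-of-ratios scaling, run for GAP against control, and cells with at least 10000 UMIs kept the GAP levels of Otof, Slc17a8 and Cabp2 and the ratios of Cacna1d and Bsn within their counting intervals.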
